A study of Mus musculus with 8 samples.

Results

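The S100 genes described here were S100a1, S100a4, S100a6, S100a8, S100a9, S100a10, S100a11 and S100a13. They were taken as every probe set of the deposited expression table whose platform gene symbol named one of these 8 genes, which gave 11 of its 45101 probe sets. Total RNA of spleen cells, taken from mice with leukemia, was hybridised to 8 Affymetrix GeneChip arrays. The 4 full-length arrays came from mice with CBFb-SMMHC, the leukemia fusion of the core-binding factor subunit CBFb with smooth muscle myosin heavy chain, that had received the mutagen ENU 2 months before. The 4 truncated arrays came from chimeric mice that expressed CBFb-SMMHCd179-221, named for the stretch it lacks, sampled 3 weeks after birth. The series text calls the full-length mice knock-in, whereas the labels of both groups say chimera, so the share of spleen cells that carried either fusion is not known here. Genotype, mutagen and age went together and cannot be told apart. Each genotype was represented by 2 animals, with 1 array for animal 1 and arrays 1, 2 and 3 for animal 2.

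S100 proteins are small calcium-binding proteins that work mostly as dimers, in which a pair of EF-hand loops in each subunit binds calcium and exposes a surface for partner proteins. S100a8 and S100a9 form calprotectin, a major cytosolic protein of neutrophils and monocytes that binds calcium and metal ions and, once released, can signal through Tlr4 and the receptor Ager. S100a10 forms a complex with annexin A2, and S100a4, S100a6, S100a11 and S100a13 act on the cytoskeleton, on annexins, in growth arrest or in the release of secreted factors.

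All levels below are RMA values on the log2 scale, on which 1 unit is a doubling, and all differences are truncated minus full-length. Arrays of an animal were averaged, so means are over 2 animals. The median log2 level of the 8 arrays ranged from 4.71 to 4.78. Array 1 of animal 2 resembled the array of animal 1 more than the other arrays of its own animal, in both genotypes. Over all probe sets the full-length correlation was 0.9895 between array 1 of animal 2 and animal 1, but 0.9539 between arrays 1 and 2 of animal 2. The corresponding truncated correlations were 0.9873 and 0.9761. Arrays 2 and 3 of animal 2 were nearly alike, with correlations of 0.9971 and 0.9968. Differences are therefore also given over the array 1 of each animal and over arrays 2 and 3 of animal 2, and the reason for the resemblance was not tested. The means, SDs and tests below take the animal numbers of the labels as given. If array 1 of animal 2 came from another animal than the labels say, all of them would change. In whole spleen cells, fewer cells of a type and less RNA per cell cannot be told apart. The 9 measured B cell genes averaged 4.63 to 4.72 on the full-length and up to 5.61 on the truncated arrays, and the 11 T and NK cell genes averaged 4.50 to 4.98 over all arrays, near the median of 4.754 over all probe sets. On average, lymphocyte markers of a normal spleen were thus dim on the arrays, though single genes of these lists were brighter. Cd79b was at 6.49 to 7.16 on the truncated arrays, and Nkg7 at 8.35 and 8.40 on arrays 2 and 3 of full-length animal 2. The labels' cell type, leukemic spleen cells, has no defining marker of its own to check.

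The promoters of 4 S100 genes are shown, S100a8 with S100a9 and S100a4 with S100a6, as 2 pairs with like patterns over the arrays. S100a13 was about as like S100a6 (Pearson correlation 0.9477) as S100a4 was (0.9407), and S100a1 was about as like S100a13 (0.9362). Likeness alone thus does not single out these 4 genes. Each sequence is from RefSeq, build GRCm38.p6, and runs 5′ to 3′ on the strand of the gene from 250 bases before its start to 50 bases after. Capitals mark matches on either strand to TGTGGT, the core bound by RUNX factors, to TTGCNNAA for C/EBP factors, to GAGGAAG for Spi1, to TGANTCA for AP-1, and to TATAAA, the TATA box. S100a8 lies at chr3:90668821-90669120 on the plus strand, S100a9 at chr3:90695672-90695971 on the minus strand, S100a4 at chr3:90603520-90603819 and S100a6 at chr3:90612644-90612943, both on the plus strand.
S100a8: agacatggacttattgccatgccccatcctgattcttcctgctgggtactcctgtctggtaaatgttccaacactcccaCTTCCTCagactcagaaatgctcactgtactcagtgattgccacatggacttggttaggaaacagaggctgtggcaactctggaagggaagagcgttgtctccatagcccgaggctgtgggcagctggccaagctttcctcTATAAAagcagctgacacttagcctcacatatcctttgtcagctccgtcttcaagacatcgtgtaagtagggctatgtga
S100a9: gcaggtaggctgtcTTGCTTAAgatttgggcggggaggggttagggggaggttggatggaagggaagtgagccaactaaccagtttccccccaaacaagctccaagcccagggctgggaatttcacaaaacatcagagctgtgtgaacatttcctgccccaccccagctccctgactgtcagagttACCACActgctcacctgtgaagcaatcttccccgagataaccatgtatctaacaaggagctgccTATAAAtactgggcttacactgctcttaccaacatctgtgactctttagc
S100a4: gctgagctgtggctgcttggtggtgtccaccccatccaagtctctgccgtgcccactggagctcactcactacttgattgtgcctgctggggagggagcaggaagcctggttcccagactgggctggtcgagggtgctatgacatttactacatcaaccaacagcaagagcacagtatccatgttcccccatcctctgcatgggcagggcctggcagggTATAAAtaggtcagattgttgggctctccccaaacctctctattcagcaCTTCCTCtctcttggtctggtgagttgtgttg
S100a6: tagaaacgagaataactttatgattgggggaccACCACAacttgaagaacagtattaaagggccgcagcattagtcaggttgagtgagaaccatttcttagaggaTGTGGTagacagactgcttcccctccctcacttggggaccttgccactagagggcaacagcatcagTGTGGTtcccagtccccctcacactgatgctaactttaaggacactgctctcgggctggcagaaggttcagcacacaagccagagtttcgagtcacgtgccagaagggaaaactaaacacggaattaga
The S100a8 window held a Spi1 match at -171 to -165 and a TATA box at -30 to -25, counted from the annotated start. The S100a9 window held a C/EBP match at -236 to -229, a RUNX match at -64 to -59 and a TATA box at 1 to 6. The S100a4 window held a TATA box at -31 to -26 and a Spi1 match at 19 to 25, and the S100a6 window held RUNX matches beginning at -217, -145 and -79. Of 32851 promoter windows of the same length, 16.76% held the RUNX letters, 10.8% the C/EBP letters, 13.63% the Spi1 letters, 7.81% the AP-1 letters and 13.62% the TATA box. Among the other members with a window, that of S100a11 held AP-1 matches beginning at -136 and -38. The windows of S100a1 and S100a13, which share 204 bases on opposite strands, held none of the 5 motifs. In all, 7 of the 8 genes had a promoter in the table, and that of S100a10 is not shown. A match is a description of the letters and not a measured binding site.

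The comparison of genotypes asked which S100 genes differ in level between leukemias of either fusion. S100a8 and S100a9 were the members with the largest differences, both higher with the truncated fusion, by 5.85-fold and 7.83-fold. The probe set that S100a11 shares with related sequences was 4.59-fold higher. S100a10 lay 3.22-fold higher in the mean, with overlapping arrays. S100a4, S100a6, S100a1 and S100a13 had mean differences between -0.79 and -0.08, and each of these 4 genes had overlapping arrays.

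Of the 8 genes, 7 had a probe set with that gene symbol alone, and all 7 passed the filter on low values. With limma, 0 of the 7 had an adjusted p under 0.05, where the background was 0% of 11404 genes tested. At an unadjusted p under 0.05, 2 of 7 were higher and 0 were lower, where 8.80% of all genes tested were higher and 5.30% lower. Every truncated array lay above every full-length array for 2 of 7 members, and every truncated array lay below for 0, where 10.3% and 8.75% of all genes did. The 7 differences had a median of -0.08, and those of all genes had a median of -0.014. The median of the members was therefore near that of all genes, and the genes are described one by one below.

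**Figure D1:**
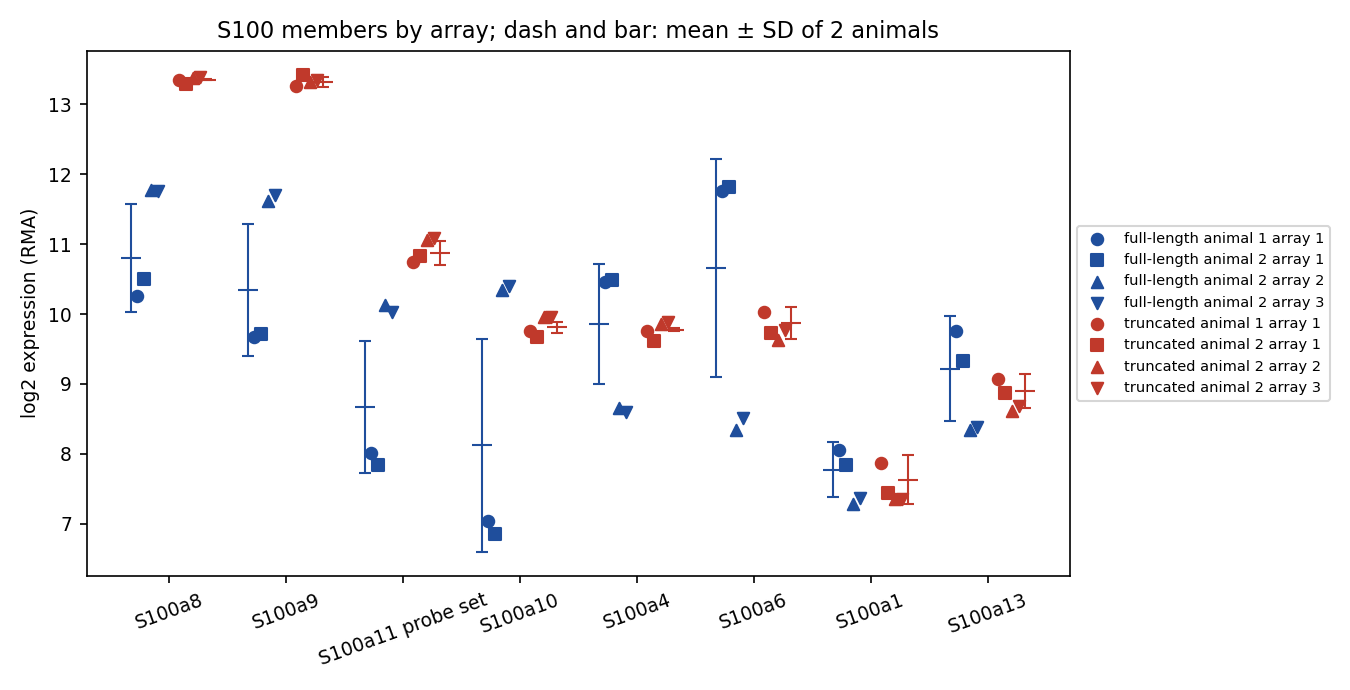
Log2 expression (RMA, vertical axis) of the S100 members on the 8 arrays, with full-length arrays in blue, truncated arrays in red and a marker shape for each animal and array; dashes and bars are the mean ± SD of 2 animals. The truncated arrays of S100a8 and S100a9 lie above 13 with no overlap, while array 1 of both full-length animals and arrays 2 and 3 of full-length animal 2 form separate levels for every member.

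S100a8 encodes the smaller subunit of calprotectin. Its level was 10.25 in full-length animal 1 and 10.50, 11.78 and 11.76 on arrays 1, 2 and 3 of full-length animal 2. It was 13.35 in truncated animal 1 and 13.29, 13.38 and 13.38 on the arrays of truncated animal 2. The truncated arrays lay close together and above all full-length arrays, with a gap of 1.51 between the nearest arrays of the genotypes. The highest value of any probe set was 14, 14.01, 13.7 and 13.68 on the truncated arrays in the same order. The truncated S100a8 levels were thus near the top of the scale, and whether this drew them together was not tested. The means were 10.80 ± 0.77 (SD, n = 2 animals) and 13.35 ± 0.0046 (SD, n = 2 animals). The difference was 2.55 with an SE of 0.40 and a 95% interval from 1.54 to 3.56, and it did not pass the threshold (limma, adjusted p = 0.0831). It was 2.94 over the array 1 of each animal and 1.62 over arrays 2 and 3, so its size depended on the arrays.

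S100a9 encodes the larger subunit of calprotectin. It was measured at 9.68 in full-length animal 1 and at 9.71, 11.62 and 11.70 on the arrays of full-length animal 2. In the truncated mice it was 13.26 in animal 1 and 13.42, 13.32 and 13.35 on the arrays of animal 2. As for S100a8, array 1 of both full-length animals was lowest, arrays 2 and 3 were intermediate, and the truncated arrays were highest with no overlap and a gap of 1.56. The means were 10.34 ± 0.94 and 13.31 ± 0.074 (SD, n = 2 animals each). The difference was 2.97 with an SE of 0.46 and an interval from 1.79 to 4.15 (limma, adjusted p = 0.0831), larger in size than that of 99.49% of the genes tested. It was 3.65 over the array 1 of each animal and 1.68 over arrays 2 and 3. The truncated S100a9 levels were also near the highest values on their arrays.

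Both calprotectin genes crossed the threshold when the replicate numbers were used as a block, although the labels do not say that same-numbered arrays were paired. With a replicate block and the animal as a random block over the 8 arrays, limma gave 2.38 (adjusted p = 0.0173) for S100a8 and 2.78 (adjusted p = 0.0325) for S100a9. With the animal as a random block alone, S100a8 passed (adjusted p = 0.0347) and S100a9 did not (adjusted p = 0.0660). These block fits take the 8 arrays as units, with a common correlation within animals for all genes. Array 1 of animal 2 resembled animal 1 more than its own animal. Every p-value given with a block is therefore not at the level of animals. In the fit to animal means, S100a8 and S100a9 also passed without array 2 of full-length animal 2 (limma, adjusted p = 0.0270 and 0.0269) and without its array 3 (0.0192 and 0.0190). They did not pass without its array 1, where the adjusted p by limma rose to 0.438 for S100a8 and 0.461 for S100a9. Nor did they pass without full-length animal 1 (limma, adjusted p = 0.102 and 0.0977), truncated animal 1 (0.398 for both) or truncated animal 2 (0.315 for both). Without full-length animal 2, both passed (limma, adjusted p = 0.0155 and 0.0135), but each of these animal leave-outs leaves 1 animal in an arm, which is assumed to vary like the other genotype. With only arrays 2 and 3 left for the full-length mice, which leaves a single animal there, the differences were 1.58 (adjusted p = 0.118) and 1.65 (adjusted p = 0.117) by limma. The calls thus rested on which full-length arrays entered and on how the arrays of an animal were joined. Over the 20 alternative settings the differences ranged from 1.58 to 3.10 for S100a8 and from 1.65 to 3.65 for S100a9. Leaving out or averaging arrays could not turn their sign, because for both genes the lowest truncated value exceeded the highest full-length value.

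Markers of maturing neutrophils and of monocytes, cells that hold much calprotectin, were also higher on the truncated arrays. All 15 measured secondary and tertiary granule genes had higher truncated means. With limma, 0 of them passed an adjusted p of 0.05 and all 15 an unadjusted one, and 14 had arrays that did not overlap, where 10.3% of all genes tested did so in that direction. Over arrays 2 and 3, 14 were higher and Stfa2l1 was lower (-1.74). One of the 15, Padi4, passed the filter on low values through the truncated animals alone, which leaves 14 of 14 at the unadjusted p without it. Padi4 is also among the 14 with arrays that did not overlap. The mean over this list was 6.88, 6.74, 8.31 and 8.29 on the full-length arrays and 9.72, 9.80, 9.61 and 9.55 on the truncated arrays, in the order of animal 1 and arrays 1 to 3 of animal 2. Of 15 monocyte and macrophage genes, 0 passed the adjusted threshold with limma, 11 were higher at an unadjusted p under 0.05, and 10 had arrays that did not overlap. Cx3cr1 differed by 0.0029, and over arrays 2 and 3 Fcgr1 (-0.50) and Marco (-0.47) were lower. The monocyte list means were 6.32 to 6.81 on the full-length and 7.85 to 8.41 on the truncated arrays. Of 7 primary granule genes, 0 passed the adjusted threshold, 5 were higher at an unadjusted p under 0.05 and 4 had arrays that did not overlap, while Srgn differed by 0.056 and was lower over arrays 2 and 3 (-0.27). The primary granule list means were 6.26 and 6.17 on the array 1 of each full-length animal, 10.30 and 10.34 on arrays 2 and 3, and 10.59 to 11.37 on the truncated arrays. Of all genes tested, 8.80% were higher at an unadjusted p under 0.05, and 10.3% had truncated arrays that all lay higher. In these 3 marker lists, 0 genes lay below the median over all probe sets on every array. The part of these cells in the S100a8 and S100a9 differences was not tested.

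S100a11 binds annexin A1 and takes part in membrane repair and growth control. Its only probe set also matches the pseudogene S100a11-ps and Gm12854, so the values cannot be given to S100a11 alone, and the probe set stood outside the fit over genes. The level was 8.01 in full-length animal 1 and 7.84, 10.14 and 10.03 on the arrays of full-length animal 2. The truncated level was 10.75 in animal 1 and 10.83, 11.06 and 11.09 on the arrays of animal 2. The arrays did not overlap, but arrays 2 and 3 of full-length animal 2 lay only 0.61 below the lowest truncated array. The means were 8.67 ± 0.94 and 10.87 ± 0.17 (SD, n = 2 animals each), and the difference was 2.20 with an SE of 0.47. In a fit over probe sets that kept those with several symbols, limma gave an adjusted p of 0.163. The probe set passed with the array 1 of each animal alone (limma, adjusted p = 3.89e-06), and without array 2, array 3 or all arrays of full-length animal 2 (0.0471, 0.0400 and 0.0209). With the replicate block it did not (0.0873). The difference was 2.86 over the array 1 of each animal and 1.00 over arrays 2 and 3.

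S100a10, also called p11, is the member whose calcium loops have lost their binding, and it anchors annexin A2 at membranes and receives plasminogen. Its level was 7.04 in full-length animal 1 and 6.85, 10.35 and 10.40 on the arrays of full-length animal 2. It was 9.76 in truncated animal 1 and 9.67, 9.95 and 9.96 on the arrays of truncated animal 2. The full-length arrays lay on both sides of the truncated ones, with arrays 2 and 3 above every truncated array. The means were 8.12 ± 1.52 and 9.81 ± 0.074 (SD, n = 2 animals each), and the difference of 1.69 had an interval from -0.09 to 3.46 (limma, adjusted p = 0.380). The sign depended on the arrays, with 2.77 over the array 1 of each animal and -0.42 over arrays 2 and 3. A second S100a10 probe set, an x_at set that can match related sequences, had a mean difference of 1.71, with 2.71 and -0.03 over the same sets of arrays. The third, with levels from 3.95 to 6.11, had a difference of 0.73, with 1.01 and 0.31, so it did not turn sign.

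Anxa2, the annexin that S100a10 binds, did not share this split. It was 9.51 in full-length animal 1 and 9.85, 9.48 and 9.54 on the arrays of full-length animal 2, and 10.95, 11.02, 10.67 and 10.75 on the truncated arrays in the same order. The full-length arrays were close together and all below the truncated ones. The difference was 1.32 with an SE of 0.22 (limma, adjusted p = 0.0884, and 0.00875 with the replicate block), and it was 1.31 over the array 1 of each animal and 1.20 over arrays 2 and 3. Anxa2 was thus higher on truncated than on full-length arrays in both sets, where the S100a10 probe set used in the fit was higher in one and lower in the other.

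**Figure D2:**
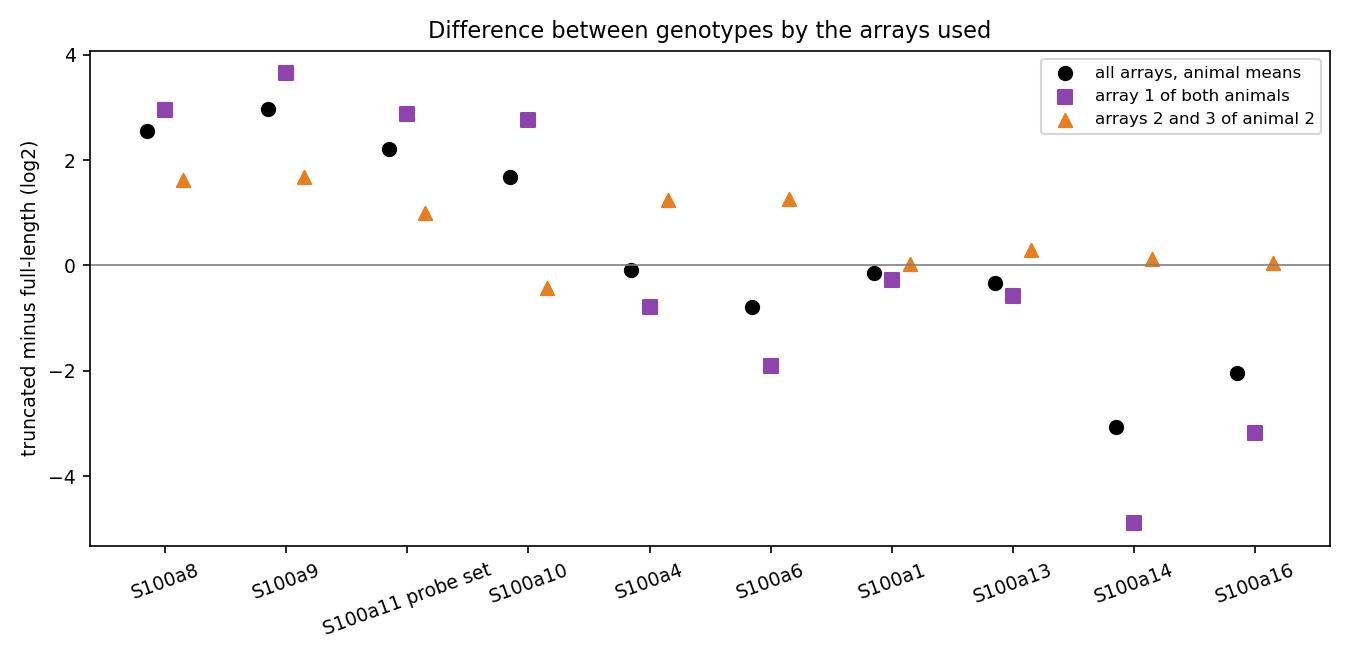
Truncated minus full-length difference (log2, vertical axis) for each tested S100 gene and the S100a11 probe set, from all arrays as animal means (circles), from the array 1 of each animal (squares) and from arrays 2 and 3 of animal 2 (triangles). S100a8, S100a9 and the S100a11 probe set stay above 0 in all 3, while S100a10, S100a4, S100a6, S100a1, S100a13, S100a14 and S100a16 change sign.

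S100a4, known as metastasin, binds nonmuscle myosin and promotes cell motility. It was measured at 10.46 in full-length animal 1 and at 10.49, 8.65 and 8.60 on the arrays of full-length animal 2. The truncated arrays were at 9.76 in animal 1 and at 9.62, 9.85 and 9.89 in animal 2. The truncated values thus lay between the 2 levels of the full-length arrays. The means were 9.85 ± 0.86 and 9.77 ± 0.019 (SD, n = 2 animals each), and the difference of -0.08 had an interval from -1.17 to 1.01 (limma, adjusted p = 0.962). It was -0.79 over the array 1 of each animal and 1.25 over arrays 2 and 3.

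S100a6, or calcyclin, binds the ubiquitin ligase adaptor Cacybp and is raised in proliferating cells. The full-length levels were 11.76 in animal 1 and 11.82, 8.35 and 8.52 on the arrays of animal 2. The truncated levels were 10.03 in animal 1 and 9.73, 9.63 and 9.77 in animal 2. Again the truncated arrays lay between the 2 full-length levels, which were farther apart than those of S100a4. The means were 10.66 ± 1.55 and 9.87 ± 0.23 (SD, n = 2 animals each), with a difference of -0.79 and an interval from -2.61 to 1.03 (limma, adjusted p = 0.732). It was -1.91 over the array 1 of each animal and 1.27 over arrays 2 and 3.

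With the array 1 of each animal alone, which still compared 2 animals with 2, limma gave an adjusted p under 0.05 for 5 of the 7 members in the fit over genes, namely S100a4, S100a6, S100a8, S100a9 and S100a10, and for 1678 higher and 1398 lower genes in all. S100a4 (adjusted p = 0.00814) and S100a6 (adjusted p = 6.58e-07) were lower there, and S100a10 was higher (adjusted p = 2.64e-09). The spread in that fit was that between array 1 of each animal and does not include the difference between array 1 and arrays 2 and 3. Without full-length animal 2, S100a6 (-1.89, adjusted p = 0.0344) and S100a10 (2.76, adjusted p = 0.0161) also passed, with the lone full-length animal assumed to vary like the others.

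Erythroid markers had the same split among the full-length arrays as S100a4 and S100a6. Of 12 measured erythroid genes, 11 were lower on arrays 2 and 3 of full-length animal 2 than on the array 1 of either full-length animal, and 1 was higher. Of 11 tested erythroid genes, 10 were lower in the truncated mean and 1 was higher. Their median difference was -0.97, against -0.014 over all genes tested. The mean over the 12 measured erythroid genes was 9.76 in full-length animal 1 and 9.81 on array 1, 7.58 on array 2 and 7.71 on array 3 of full-length animal 2, and it was 7.93 to 8.52 on the truncated arrays. Among the full-length arrays, the mean over 10 mast cell and basophil genes ran the other way, as did S100a10. Of these genes, 6 were higher on arrays 2 and 3 of full-length animal 2 than on the array 1 of either full-length animal, 1 (Tpsab1) was lower, and 3 were neither. The list means were 6.75 and 6.81 on the array 1 of each full-length animal, 8.80 and 8.85 on arrays 2 and 3, and 7.47 to 7.61 on the truncated arrays. The truncated means of this list were thus nearer array 1, whereas truncated S100a10, at 9.67 to 9.96, was nearer arrays 2 and 3. Granule genes were also higher on arrays 2 and 3 of full-length animal 2, namely 7 of 7 primary and 14 of 15 secondary and tertiary ones. Among the 14, Mmp8 hardly differed, at 6.593 and 6.584 on the array 1 of each full-length animal against 6.594 and 6.621. All 7 members in the fit split the full-length arrays too, 3 higher and 4 lower on arrays 2 and 3. The share of all genes tested that split in this way was not counted, so none of these list counts can be set against it. The part of these cell types in the S100 levels was not tested.

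S100a1 is best known from heart muscle, where it acts on calcium pumps and channels. Its level was 8.05 in full-length animal 1 and 7.84, 7.28 and 7.37 on the arrays of full-length animal 2, against 7.88, 7.45, 7.35 and 7.36 on the truncated arrays in the same order. These ranges overlapped almost fully, and animal 1 was highest in both genotypes. The difference was -0.15 with an interval from -0.93 to 0.64 (limma, adjusted p = 0.907), and the second S100a1 probe set gave -0.07. Of the members, S100a1 had the narrowest interval, which leaves room for a change of nearly 1 unit in the lower direction.

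S100a13 takes part in the release of Fgf1 and Il1a, which lack a signal peptide. It was measured at 9.75 in full-length animal 1 and at 9.34, 8.34 and 8.38 on the arrays of full-length animal 2. The truncated arrays were at 9.07, 8.88, 8.62 and 8.68 and lay inside the full-length range. The difference was -0.33 with an interval from -1.35 to 0.70 (limma, adjusted p = 0.815), and it was -0.57 over the array 1 of each animal and 0.29 over arrays 2 and 3.

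Across the 8 arrays, as a description in which points share animals and hybridisations, S100a8 and S100a9 had a Pearson correlation of 0.9953 and S100a4 and S100a6 one of 0.9407. S100a13 correlated with S100a6 at 0.9477 and with S100a1, whose promoter window overlaps its own, at 0.9362. S100a10 ran against S100a6 at -0.9456. The tested genes most like S100a8 were Scamp1 (0.9989), Slco3a1 (0.9986) and C1qa (0.9971), a complement gene of macrophages. Those most like S100a9 were Mrc1 (0.9998), the macrophage mannose receptor, Ncf1 (0.9984), a subunit of the phagocyte oxidase, and Arsb (0.9979), a lysosomal sulfatase. S100a10 was most like Dpp4 (0.9975), Inpp5d (0.9975) and Far2 (0.9974). S100a4 was most like Fam168a (0.9962), Pik3r2 (0.9952) and Cdkn1a (0.9936), an inhibitor of the cell cycle. S100a6 was most like Prelid2 (0.9951), Tent5c (0.995) and Ddx39a (0.991), S100a1 like Pebp1 (0.9924), Cdt1 (0.9855) and Pltp (0.9851), and S100a13 like Yif1b (0.9954), Mcm5 (0.9954) and Nop56 (0.9946). These likenesses are over 8 arrays and carry no test.

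**Figure D3:**
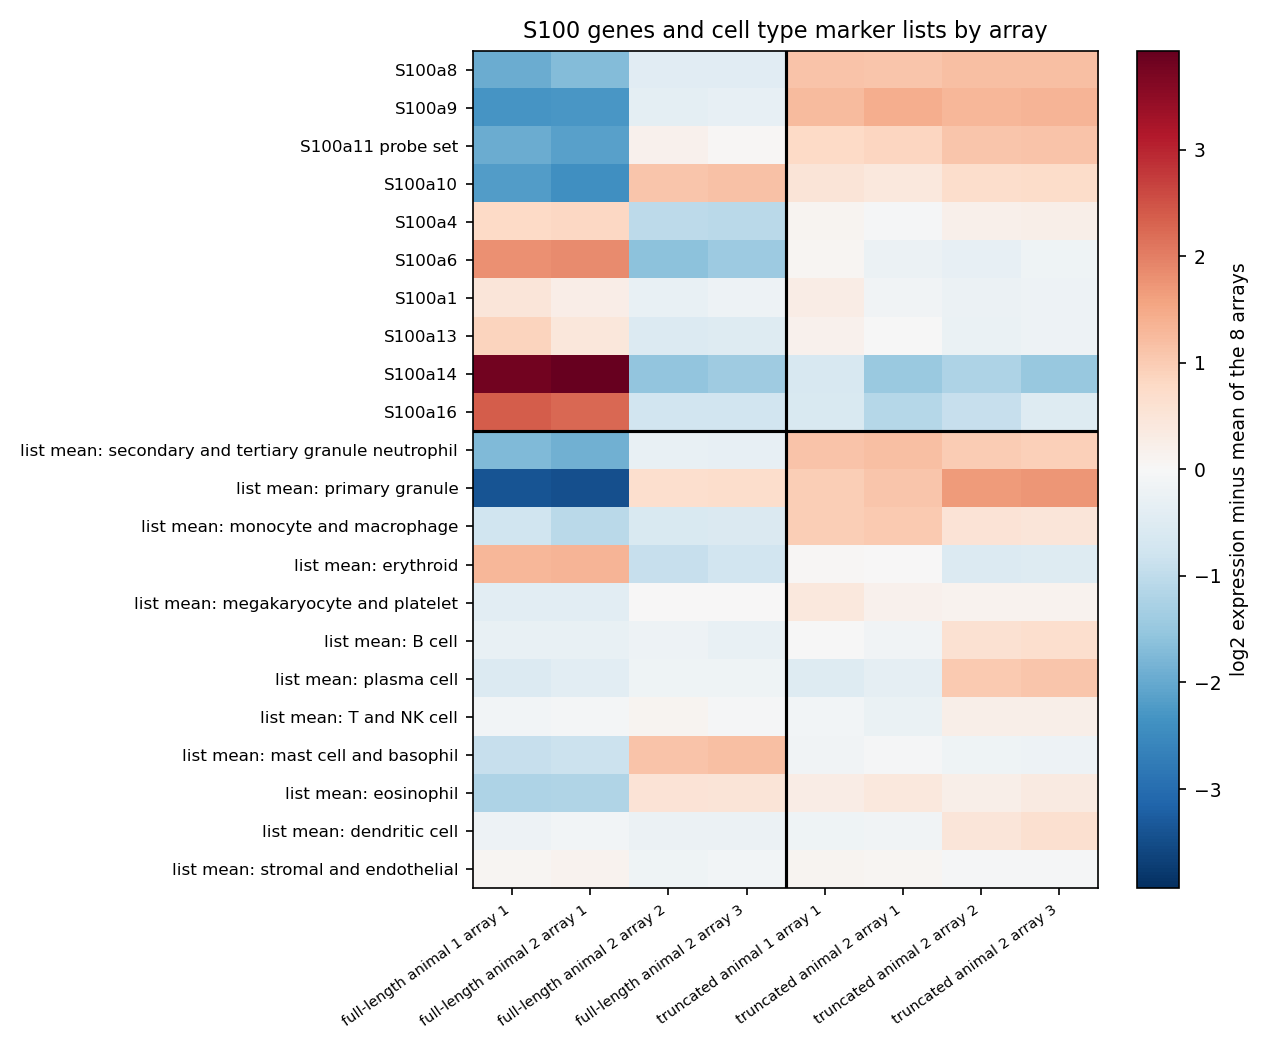
Log2 expression of each S100 gene, and mean log2 expression of each cell type marker list, minus its mean over the 8 arrays (colour, red above and blue below), with the full-length arrays left of the line and the truncated arrays right of it. Like the secondary granule list, S100a8 and S100a9 are lowest on the array 1 of both full-length animals and highest on the truncated arrays, while S100a14, S100a16 and S100a6 are highest where the erythroid list is highest.

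Of 14 other S100 genes listed, 7 were on the array, and 5 of these, S100a3, S100a5, S100a7l2, S100b and S100g, lay below the median over all probe sets on every array. S100a14 and S100a16, which bind calcium weakly, were the other two. S100a14 was at 9.09 in full-length animal 1 and at 9.24, 3.76 and 3.92 on the arrays of full-length animal 2, and at 4.67, 3.86, 4.09 and 3.83 on the truncated arrays. Its high level was thus seen on the array 1 of each full-length animal alone. S100a14 passed the filter on low values through the full-length animals alone, so its difference of -3.06 is given with no test, made of -4.89 over the array 1 of each animal and 0.13 over arrays 2 and 3. S100a16 had the same pattern, with 9.67, 9.56, 6.56 and 6.54 on the full-length and 6.69, 6.19, 6.41 and 6.79 on the truncated arrays. Its difference was -2.04 with an SE of 0.69 (limma, adjusted p = 0.288), and its second probe set gave -2.92.

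The S100 members lie on mouse chromosome 3, so other genes there were read beside them. Between the members and within 100 kb of them, 22 genes were tested, of which 9 were S100 genes and 13 were not. Of the 13 others, 7 were higher and 6 lower, and 0 passed an unadjusted p under 0.05 with limma in either direction. Of all genes tested, 8.80% were higher and 5.30% lower at that p. Arrays did not overlap for 0 of the 13, where 10.3% of all genes tested lay higher and 8.75% lower. A count of 0 among 13 genes cannot be told apart from these shares. The median difference of the 13 was 0.0010, with the largest in Lelp1 (0.40), Chtop (-0.36), Ints3 (-0.32) and Lor (0.31). A second Chtop probe set, not used in the fit, differed by -0.24, with every truncated array lower.

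Among receptors of released S100 proteins and their signalling, 10 of 12 measured genes were tested, and 0 passed an adjusted p of 0.05 with limma. At an unadjusted p under 0.05, 4 were higher and 1 lower, where 8.80% and 5.30% of all genes tested were. The median difference was 0.14. Tlr4, the receptor of calprotectin, was at 4.96 in full-length animal 1, at 4.89, 5.51 and 5.56 on the arrays of full-length animal 2, and at 6.83, 6.64, 5.70 and 5.75 on the truncated arrays. The truncated arrays lay above by as little as 0.13. The Tlr4 difference of 1.29 (limma, adjusted p = 0.197, and 0.205 with the replicate block) came to 1.81 over the array 1 of each animal and 0.19 over arrays 2 and 3. Myd88, the Tlr4 adaptor, was 0.82 higher (limma, adjusted p = 0.221, and 0.2185 with the replicate block). Emb, a receptor related to basigin, was 1.61 higher (limma, adjusted p = 0.104, and 0.0248 with the replicate block). Cd68, a lysosomal protein of macrophages that also stands in the monocyte list, was 1.73 higher (limma, adjusted p = 0.0857, and 0.0966 with the replicate block). Ager, the receptor for advanced glycation end products, was at 6.59, 6.19, 6.79 and 6.78 on the full-length and 6.33, 5.86, 5.66 and 5.61 on the truncated arrays. These ranges overlapped, with a difference of -0.57 (limma, adjusted p = 0.470), and another Ager probe set gave -0.05.

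Annexins are calcium-dependent membrane-binding proteins, and several are S100 partners. Of 11 measured, 9 were tested, 0 passed an adjusted p of 0.05 with limma, and the median difference was 0.56. At an unadjusted p under 0.05, 4 were higher and 1 lower, where 8.80% and 5.30% of all genes tested were. Anxa3, an annexin of neutrophil granules, was at 4.17 in full-length animal 1, at 3.93, 6.48 and 6.68 on the arrays of full-length animal 2 and at 8.84, 8.57, 8.46 and 8.38 on the truncated arrays. Its difference was 3.72 (limma, adjusted p = 0.0819, and 0.0485 with the replicate block), and the arrays did not overlap. Anxa1, the partner of S100a11 and a regulator of leukocyte migration, was at 7.94, 7.71, 10.49 and 10.55 on the full-length and 12.03, 12.06, 11.80 and 11.85 on the truncated arrays. Its difference of 3.20 (limma, adjusted p = 0.0981, and 0.0830 with the replicate block) was 4.22 over the array 1 of each animal and 1.30 over arrays 2 and 3. Anxa6 was 1.70 higher (limma, adjusted p = 0.0857, and 0.0150 with the replicate block), and of its other 3 probe sets 1 gave 2.09 and the others 0.05 and 0.08.

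Among other partners inside the cell, 14 of 20 measured genes were tested, and 9 were higher and 5 lower. At an unadjusted p under 0.05 with limma, where 8.80% of all genes tested were higher and 5.30% lower, 1 was higher and 1 lower. Ctsb, a lysosomal protease that the list counts as a partner, was the higher one, at 0.83 (limma, adjusted p = 0.248, and 0.150 with the replicate block). The lower one was Myh10, a nonmuscle myosin heavy chain, at -2.34 with an SE of 0.79 (limma, adjusted p = 0.288, and 0.0248 with the replicate block). Myh9, the nonmuscle myosin heavy chain that S100a4 binds, differed by 0.48 with overlapping arrays.

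All 11 measured regulators of myeloid S100 transcription were tested, and 8 were higher and 3 lower, with a median difference of 1.00. With limma 0 passed the adjusted threshold, and at an unadjusted p under 0.05, 5 were higher and 0 lower. One of the 5, Gfi1, passed the filter on low values through the truncated animals alone, which leaves 4 of 10 without it. Of all genes tested, 8.80% were higher and 5.30% lower at that unadjusted p. Irf8, which drives monocyte development, was at 6.30, 5.96, 6.84 and 6.88 on the full-length and 8.32, 8.28, 8.95 and 8.90 on the truncated arrays. Its difference of 2.08 (limma, adjusted p = 0.0819, and 0.00307 with the replicate block) hardly varied with the arrays, at 2.17 and 2.06. Cebpd, a C/EBP factor of myeloid cells, was 2.26 higher (limma, adjusted p = 0.0819, and 0.0400 with the replicate block), and its second probe set gave 0.32. Klf4, a monocyte factor, was 1.93 higher (limma, adjusted p = 0.109, and 0.0173 with the replicate block). Gfi1, a repressor needed for neutrophil development, was at 3.15, 3.62, 5.13 and 5.34 on the full-length and 6.69, 6.49, 6.78 and 6.68 on the truncated arrays, with no test read from it because of the filter.

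Of other small EF-hand proteins, 10 of 16 measured were tested, and 9 were higher and 1 lower, with a median difference of 0.40. With limma 0 passed the adjusted threshold, and at an unadjusted p under 0.05, 5 were higher and 0 lower. Aif1 and Gca are among the 5 and passed the filter on low values through the truncated animals alone, which leaves 3 of 8 without them. Of all genes tested, 8.80% were higher and 5.30% lower at that unadjusted p. Aif1, a macrophage protein that binds actin, differed by 2.04, and Gca, grancalcin of neutrophil granules, by 1.22, both given with no test. Lcp1, the leukocyte actin bundler, was 1.01 higher with overlapping arrays, and Mcfd2, a cargo receptor subunit, was 0.75 higher.

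**Figure D4:**
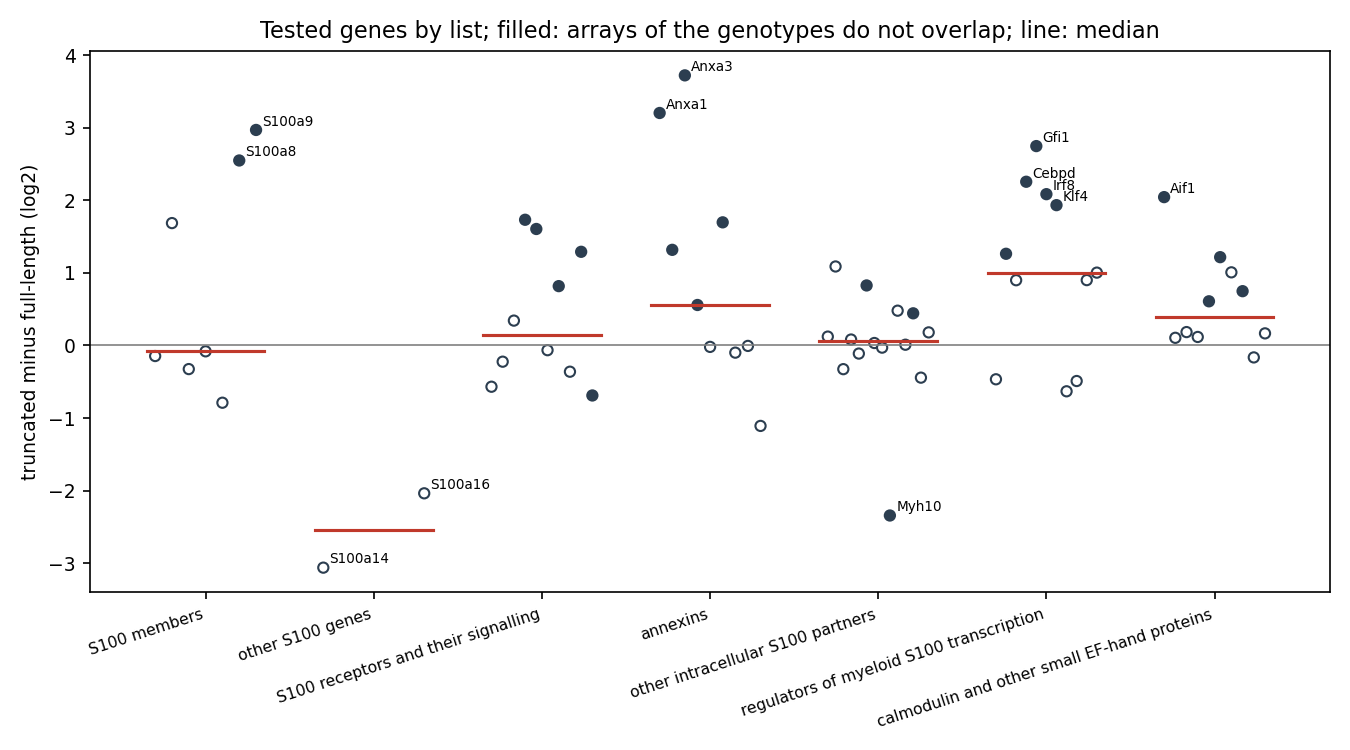
Truncated minus full-length difference (log2, vertical axis) of each tested gene in the S100 lists and the 5 related lists, with filled points where the arrays of the genotypes do not overlap and a red line at the median of each list. S100a8 and S100a9 are the filled S100 members, while the median of the regulator list is 1.00 and that of the member list is -0.08.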

How the data were processed

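The deposited table held log2 expression values for 45101 probe sets on 8 arrays. The submitters' processing notes name RMA, without a version. The log base is not given in the sources used here and follows from their range. RMA normalizes quantiles and draws dim values together, which understates differences of dim genes.

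By the platform annotation, 34945 probe sets carried a single symbol, 932 several and 9160 none. Arrays of an animal were averaged, since the labels do not say whether they were separate extractions. For each gene the probe set of highest mean level stood in, and genes with at least 2 of 4 animals above the median of 4.754 entered the fit. The S100a8 set and the S100a1 set used end in s_at and can match related sequences. These 11404 genes were tested with limma 3.58.1 (lmFit, then eBayes; R 4.3.3), which had 2 residual and 3.24 prior degrees of freedom, and p-values were Benjamini-Hochberg adjusted over all of them. For single values, the smallest two-sided p of an exact permutation test is 0.333 with 2 animals per genotype. The number of arrays limits the precision.

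The labels give replicate numbers but do not say that same-numbered arrays of the genotypes were paired. Same-numbered arrays deviated together from their group means, with correlations over genes of 0.301, 0.144, 0.2297 and 0.2131. Array 2 of full-length animal 2 correlated about as well with truncated array 3 (0.2271). Of the full-length arrays of animal 2, array 1 correlated better with truncated animal 1 (0.1606) and array 3 better with truncated array 2 (0.2185) than with their own numbers. A fit with the replicate number as a block was run as an alternative and assumes such a pairing.

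The members, the gene lists and the rule for named genes were chosen with earlier results of these data known. The rule took every member, the 4 genes of each related list and of the chromosomal neighbours with the largest differences, Anxa2, Ager and Tlr4, and the 3 genes most correlated with each member. Cebpe is not analysed here. The fit was tested on simulated data. The alternatives also left out arrays and animals, and changed the filter, the choice of probe set, the centring and the prior.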

Additional observations from a re-analysis of the deposited data

Results flagged for a closer look

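One of 90 groups of 4 arrays looked at had an array far from the others. Anxa6 was at 7.162 on array 2 of truncated animal 2, while the nearest of the other truncated arrays was at 7.531 and the farthest at 7.556. The gap took 0.936 of the range, above Dixon's critical value for 4 values. Chance flags about 1 in 20 groups, so a single array among 90 groups is not unusual. The Anxa6 level on this array was still above all full-length arrays.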

How the results depend on the processing

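S100a8 and S100a9 kept their direction in all 20 alternatives, and the S100a11 probe set in all 19 in which it was fitted (0.79 to 2.86). For these probe sets the lowest truncated value exceeded the highest full-length value. Leaving out or averaging arrays could therefore not turn the sign, and the kept direction adds no support of its own. The number of genes past the threshold depended on the unit of replication. With the animal as a random block 264 genes were higher and 81 lower, with 1 member (S100a8), and with a replicate block as well 416 and 183, with 2 members (S100a8 and S100a9). The replicate block changed the call of no other member. Of 25 other named genes it brought 11 past the threshold. Gfi1, Aif1 and Gca are among the 11 but passed the filter on low values through the truncated animals alone. No test is therefore read from these genes, and the others of the 11 are given beside their values. Of the other named genes that did not pass, the block value is printed for Cd68, Anxa1, Tlr4, Myd88 and Ctsb only. The array 1 of each animal gave 1678 and 1398, with 5 members, an intensity trend with a robust prior 2 and 1, and a stricter filter 0 and 1. Leaving out 1 array or 1 animal gave 0 to 445 higher and 0 to 182 lower genes and 0 to 4 members. The highest counts came without full-length animal 2, while leaving out its array 2 gave 289 and 41 and its array 3 gave 376 and 46. Array 2 or array 3 of truncated animal 2 left out gave 1 and 1.

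S100a4 turned to 0.1062 with the animal random block and to 0.1135 with the replicate block as well. Without the array 1 of both full-length animals, S100a1 was at 0.3024, S100a4 at 1.149, S100a6 at 1.441, S100a13 at 0.5342, S100a16 at 0.02618, Ints3 at 0.6027, S100a10 at -0.5659, Arg1 at -0.5719 and Myh9 at -0.01017. Over arrays 2 and 3 of animal 2 only, an alternative chosen after seeing the data, S100a1 was at 0.02612, S100a4 at 1.248, S100a6 at 1.269, S100a13 at 0.2884, S100a16 at 0.04853, Ints3 at 0.1112, S100a10 at -0.4192, Myh9 at -0.00035 and Lelp1 at -0.01075. With 1 array or 1 animal left out, the range was -0.4226 to 0.1323 for S100a1, -0.6884 to 0.5274 for S100a4, -1.888 to 0.3107 for S100a6, -0.8593 to 0.2093 for S100a13, -0.861 to 0.219 for Ints3, -0.666 to 2.843 for Arg1 and -0.723 to 0.01142 for Chtop. The turns of the S100 genes came without full-length animal 1, for S100a4 also without array 1 of full-length animal 2 (0.2305), and for S100a1 also without truncated animal 2 (0.1003). The cause of these turns was not tested. No detection calls were used, so what signal over background limits could not be read for the dim S100 genes.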

Other observations

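Some genes of the related lists split the arrays of both genotypes. Arg1, the arginase of myeloid cells, was at 9.10 in truncated animal 1 and 8.95 on array 1 of truncated animal 2, but at 3.76 and 4.06 on its arrays 2 and 3, while the full-length levels were 5.63, 4.81, 7.83 and 8.01. Its difference was 3.81 over the array 1 of each animal and -4.01 over arrays 2 and 3. Myh10 was at 7.31, 6.92, 4.01 and 4.69 on the truncated arrays and at 9.25, 8.74, 7.58 and 7.55 on the full-length arrays, so it was lower with the truncated fusion in both sets. Klf4 was lowest in truncated animal 1, at 8.62 against 9.37, 9.50 and 9.52 in animal 2.

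Cbfb, a gene of the fusion, and its partner Runx1, chosen for mention after their values were seen, also split the full-length arrays. The myosin gene of the fusion is not given here. Stat3, given last, was likewise outside the rule for named genes. Runx1 was at 6.79, 6.41, 9.11 and 9.15 on the full-length arrays and at 6.95 to 7.20 on the truncated arrays. Cbfb, whose probe set was not placed on either part of the fusion here, was at 10.16, 9.99, 9.39 and 9.47 on the full-length and at 9.27 to 9.53 on the truncated arrays. Stat3 was at 7.49, 7.58, 10.01 and 10.03 on the full-length arrays and at 9.30 to 9.51 on the truncated arrays, a split like that of S100a10.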
